A study of Mus musculus with 18 samples.

Results

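Of 65832 accessible regions in wild-type progenitors, 1014 were also accessible in stem cells after repeated 5-fluorouracil and in no other stem cell list of the study. These 1014 regions, here called the 5-fluorouracil-shared regions, make up 1.54% of the progenitor list. They were selected on measured values: overlapping rows of each deposited peak list were merged into regions, and a wild-type progenitor region was taken where it overlapped a 5-fluorouracil stem cell region by at least 1 bp and no region of the vehicle, wild-type or knockout stem cell lists. Their presence in the first pair of lists, their absence from the other 3 and their strength in the lists used to choose them are therefore descriptions. Presence in knockout progenitors, position, agreement of summits and promoter sequence were not used to choose them. The required overlap does limit how far apart the summits can lie.

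Open chromatin was mapped by ATAC-seq, in which the transposase Tn5 cuts and tags accessible DNA, in HSC and HPC of the mouse, that is haematopoietic stem cells and, as the name is read here, progenitors. Of 18 samples in 6 groups, those taken at 8 weeks were 4 of wild-type HPC, 2 of Kmt2c -/- HPC, 2 of wild-type HSC and 2 of Kmt2c -/- HSC, the knockouts carrying Kmt2c f/f with Vav-Cre, whose promoter is active in blood cells. Those taken at 16 weeks were 4 of wild-type HSC given 5-fluorouracil at 150 mg/kg in 3 injections spaced 3 weeks apart, and 4 given PBS, the vehicle, on the same schedule. The series describes its populations as coming from Kmt2c conditional knockout mice. Age differs between the 16-week HSC and the 8-week groups, so treatment schedule and age cannot be told apart where those are compared. The sources used here name no markers for the sorts. Each group had 1 deposited list, so replicates could not be compared, and no p-value is given. Intervals are 95% Wilson intervals over regions, or over promoter windows for motifs. They cover counting error only and treat neighbouring regions or windows as independent.

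Haematopoietic stem cells divide rarely in the adult and give rise to progenitors that divide often. 5-Fluorouracil blocks thymidylate synthesis and kills dividing cells, and the stem cells that survive it are driven to divide and refill the marrow. Kmt2c encodes a methyltransferase of histone H3 lysine 4 that works mainly at enhancers, the gene-distal elements whose accessibility often differs between cell types. AP-1 factors, dimers of FOS and JUN proteins, bind many such elements after growth and stress signals, RUNX and C/EBP factors act in stem cells and in myeloid progenitors, and STAT factors carry cytokine signals.

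Promoter sequence was at hand for 21 of the 1014 regions, those that overlapped a RefSeq promoter window. Such a window runs from 250 bases before to 50 bases after an annotated start. The 21 regions touched 23 windows of 22 genes, out of 32851 windows, and 17 motifs were searched on both strands in the 250 bases before the start. The windows of the 4 promoters shown first were chosen after their values were seen, because the accessible region itself held an AP-1 match. That of Nlrc4 was chosen because it held RUNX and C/EBP matches. The region at Gm7854 also held an AP-1 match, farther from the summits, and its window is not shown. P2ry14 encodes a receptor for UDP-sugars found on blood progenitors, Sphk1 a kinase that makes the lipid signal sphingosine-1-phosphate, and Nlrc4 an inflammasome sensor. The sequences are from RefSeq on GRCm38.p6, read 5′ to 3′ on the gene's strand, with the matches, on either strand, in capitals. That of P2ry14 is chr3:59153493-59153742 on the minus strand, of Sphk1 chr11:116531587-116531836 on the plus strand, and of Ankrd22 chr19:34166042-34166291 on the minus strand. That of 2310075C17Rik is chr9:112227206-112227455 on the plus strand, and of Nlrc4 chr17:74459109-74459358 on the minus strand.
P2ry14: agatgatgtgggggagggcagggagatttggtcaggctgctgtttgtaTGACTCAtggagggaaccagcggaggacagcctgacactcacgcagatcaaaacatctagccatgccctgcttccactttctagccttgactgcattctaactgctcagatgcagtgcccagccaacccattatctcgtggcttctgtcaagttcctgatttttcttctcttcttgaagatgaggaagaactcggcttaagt
Sphk1: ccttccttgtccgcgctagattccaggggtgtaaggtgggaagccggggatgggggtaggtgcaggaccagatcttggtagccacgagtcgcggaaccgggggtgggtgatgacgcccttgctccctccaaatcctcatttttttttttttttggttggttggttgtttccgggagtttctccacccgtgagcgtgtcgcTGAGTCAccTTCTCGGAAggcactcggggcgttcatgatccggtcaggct
Ankrd22: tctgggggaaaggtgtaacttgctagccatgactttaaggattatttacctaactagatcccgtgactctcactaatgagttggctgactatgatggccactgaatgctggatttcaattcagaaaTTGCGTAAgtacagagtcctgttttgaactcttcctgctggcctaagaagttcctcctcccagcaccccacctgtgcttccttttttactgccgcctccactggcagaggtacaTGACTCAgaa
2310075C17Rik: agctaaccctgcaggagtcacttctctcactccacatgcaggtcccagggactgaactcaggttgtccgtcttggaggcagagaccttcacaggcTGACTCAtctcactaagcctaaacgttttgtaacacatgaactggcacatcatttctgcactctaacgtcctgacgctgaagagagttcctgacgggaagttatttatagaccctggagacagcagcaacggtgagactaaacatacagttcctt
Nlrc4: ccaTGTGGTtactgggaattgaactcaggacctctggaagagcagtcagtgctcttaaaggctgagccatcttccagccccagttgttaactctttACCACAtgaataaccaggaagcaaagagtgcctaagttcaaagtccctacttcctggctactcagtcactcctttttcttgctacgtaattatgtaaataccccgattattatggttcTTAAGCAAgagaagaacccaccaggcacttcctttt

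The AP-1 motif TGANTCA, where N is any base, was in 9 of the 23 windows held by 5-fluorouracil-shared regions, 39.1% (22.2 to 59.2). Over all 32851 windows it was in 6.75%, and over the 13139 windows that any wild-type HPC region overlapped, in 4.08%. The matching comparison is with progenitor regions that overlapped a vehicle HSC region and no 5-fluorouracil or 8-week HSC region, here called vehicle-shared regions. They held 89 windows, of which 4, or 4.49% (1.76 to 11), had the motif, and progenitor regions in no HSC list held 151, of which 6, or 3.97% (1.83 to 8.40), had it. These intervals are over windows, here 23 from 21 regions, and windows of the same region are not independent. AP-1 is singled out of the 17 motifs after their values were seen. The 9 windows belonged to 8 genes, since both Sphk1 windows contain the same match, and held 8 matches at separate positions. The share depended on how regions were drawn: it was 10 of 100 where each region was cut to 200 bp around its summits, beside 6 of 141 for vehicle-shared regions, and at equal list length 3 of 16, beside 1 of 9. After removal of the weakest 25% from every list it was 4 of 14, beside 4 of 70.

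Of these 8 matches, 5 lay inside the shared region, and 1 of them, at Ankrd22, lay within 50 bp of the HPC summit. In P2ry14 the match was at 59153688 to 59153694 on chromosome 3, 79 bp from the HPC summit and 58 bp from the 5-fluorouracil summit. In Ankrd22 it was 26 bp and 38 bp from them, in 2310075C17Rik 80 bp and 63 bp, and in Sphk1 108 bp and 98 bp. The match of Gm7854 was 202 bp and 233 bp away. The matches of Gm35218, Gm36208 and Gm36372 lay in the promoter window but outside the shared region. In Sphk1 a STAT match, TTCNNNGAA, follows the AP-1 match, as the capitals in its sequence show.

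The same motif was counted on the stem cell side, where a region of 1 of the 16-week lists overlapped no region of the other 3 HSC lists. Promoter windows held by such 5-fluorouracil regions that no wild-type HPC region overlapped had AP-1 in 20 of 74 cases, 27.0% (18.2 to 38.1). Those held by such vehicle regions had it in 17 of 352 where no wild-type HPC region overlapped, 4.83% (3.04 to 7.60), and in 3 of 88 where one did, 3.41% (1.17 to 9.55). The higher share was therefore seen with and without a progenitor region, and not in the vehicle classes.

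Other motifs differed less. C/EBP, TTGCNNAA, was in 7 of the 23 windows, 30.4%, against 9.56% of all windows, 8.99% of vehicle-shared windows and 15.2% of windows in no HSC list. RUNX, TGTGGT, was in 6, or 26.1%, beside 14.0% of all windows, 20.2% of vehicle-shared windows and 25.8% of windows in no HSC list. The windows of D630039A03Rik and Gm42293 overlap and hold the same RUNX and C/EBP matches. STAT was in 4, or 17.4%, beside 7.02% of all windows, 7.87% of vehicle-shared windows and 8.61% of windows in no HSC list. In the windows of all wild-type HPC regions C/EBP was in 7.28%, RUNX in 11.3% and STAT in 5.59%. GGGCGG, bound by SP and KLF factors, was in 6, or 26.1%, beside 31.5% of vehicle-shared windows, 22.5% of windows in no HSC list, 32.7% of all windows and 59.3% of the windows of all wild-type HPC regions. PU.1 (GAGGAAGT), CRE (TGACGTCA), IRF (GAAANNGAA), MYB (AACNGTT), PAR bZIP (TTACGTAA) and NF-kB (GGGANTTCC) had 0 matches in the 23 windows. Their shares of all windows ran from 0.113% for PAR bZIP to 7.13% for IRF. With shares this low, 0 matches in 23 windows do not show that these motifs were rarer here than elsewhere. The motifs GATAAG of GATA factors, CCGGAAG of ETS factors, AGGGGGC of CTCF, TGTTTAC of FOX factors and CTTGGCA of NFI had 1 each, and the E-box CAGCTG had 2. A count of 1 is 4.35%, beside 6.55%, 6.91%, 9.43%, 3.17% and 4.78% of all windows in that order. The E-box share was 8.70% beside 13.0%. ETS was in 13.8% of the windows of all wild-type HPC regions. A match is a description of letters and shows neither binding nor a cause, and these 21 promoter regions are 2.07% of the 1014, so the distal regions were not searched.

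The 5-fluorouracil-shared regions were weak in both lists that chose them. Fold enrichment is the deposited ratio of summit signal to local background, taken as the highest among a region's rows. For these regions it ran in wild-type HPC from 2.38 to 36.3 with a median of 10.4 and quartiles of 7.73 and 13.9. Over all wild-type HPC regions the median was 13.7. In the 5-fluorouracil list the same regions ran from 1.82 to 24.4 with a median of 4.86 and quartiles of 4.08 and 5.88. A fold is relative to its own list, so the lower values there do not show a lower accessibility. Ranked by −log10 p within each list, their median percentile was 25.2 in wild-type HPC and 8.97 in 5-fluorouracil HSC. Each list was divided by the same rank into 4 strength classes of equal size. The weakest class of the HPC list held 506 of them, 49.9% (46.8 to 53), and the strongest 41, or 4.04% (2.99 to 5.44). The weakest class of the 5-fluorouracil list held 924, or 91.1% (89.2 to 92.7).

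Within the 1014, 791 regions, or 78.0%, had the higher percentile in HPC, and 13, or 1.28%, lay above the middle of the 5-fluorouracil list. Only 3 were among the 1000 highest folds of the HPC list. Their median width was 371 bp in HPC, against 481 bp for all HPC regions, and 343 bp in the 5-fluorouracil list. A single deposited row made up 874, or 86.2%. Across the 1014 regions the folds of the 2 lists had a Spearman correlation of 0.43, a description over points that share 2 pooled lists.

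**Figure D1:**
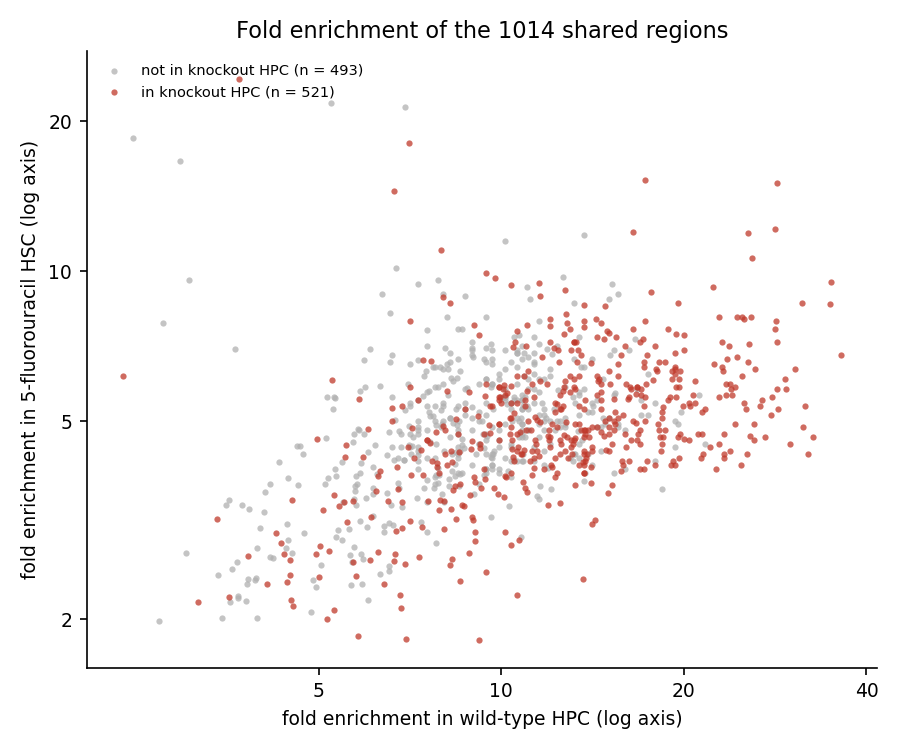
Each point is 1 of the 1014 5-fluorouracil-shared regions, with its fold enrichment in wild-type HPC on the horizontal log axis and in 5-fluorouracil HSC on the vertical log axis, coloured by presence in knockout HPC. Most points lie below a fold of 10 in 5-fluorouracil HSC across the whole HPC range, and the 521 regions found in knockout HPC lie further right, with a median HPC fold of 12.8 against 8.72 for the other 493.

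Other small classes of progenitor regions were also weak in HPC. There were 2726 vehicle-shared regions, whose median fold was 10.4 in HPC at percentile 22.5, and 5.42 in the vehicle list at percentile 13.1. The 8388 regions in no HSC list had a median HPC fold of 9.75 at percentile 20.3, and the 8930 regions in both 16-week lists but neither 8-week list 10 at percentile 25.3. The last class was less weak in the 5-fluorouracil list, with a median fold of 7.15 at percentile 29.0. As deposited there were more vehicle-shared than 5-fluorouracil-shared regions, 2726 against 1014. With every list limited to its 40073 strongest regions the order turned, with 156 against 356, and 7 of the 356 overlapped one of the 1014. The counts therefore give no direction of change with treatment. The vehicle list held 80100 regions and the 5-fluorouracil list 71363.

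The rule left out close neighbours on both sides. The smallest overlap of a chosen region with its 5-fluorouracil region was 37 bp, and the smallest gap to a region of the 3 lists that had to lack it was 26 bp, with 21 chosen regions within 100 bp of one. Just outside, 2 regions were left out by an overlap of at most 50 bp with another HSC list, the smaller being 32 bp, and 41 regions in no HSC list lay within 100 bp of a 5-fluorouracil region, the nearest 2 bp away. Of 53356 wild-type HPC regions in the 5-fluorouracil list, 1228 were not in the vehicle list. Of those 1228, 72 were in wild-type HSC, 182 in knockout HSC and 214 in either, which left the 1014.

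Most of the 1014 regions were the same site in both lists rather than touching edges. The summits, the positions of highest signal, were a median of 12 bp apart, and 949 pairs, 93.6% (91.9 to 94.9), lay within 100 bp. Over all wild-type HPC regions in the 5-fluorouracil list 90.4% did, with a median of 11 bp, and for vehicle-shared regions and their vehicle summits 93.2%, with a median of 12 bp. The median overlap with the 5-fluorouracil region was 300 bp. No vehicle region lay within 1 kb of 807 regions, 79.6% (77.0 to 82.0), and the median gap to the nearest was 4176 bp.

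The 65 regions with summits over 100 bp apart stood apart in several values. Their median fold was 7.46 in HPC and 5.57 in 5-fluorouracil HSC, against 10.6 and 4.81 for the other 949. Their 5-fluorouracil regions were wider, at a median of 688 bp against 328 bp, and the nearest vehicle region was a median of 838 bp away against 4481 bp. In 31 of the 1014, 25 of them among these 65, the 5-fluorouracil region itself overlapped a vehicle region that the HPC region did not reach. Without those 31, 983 regions were left, of which 509 were in knockout HPC.

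**Figure D2:**
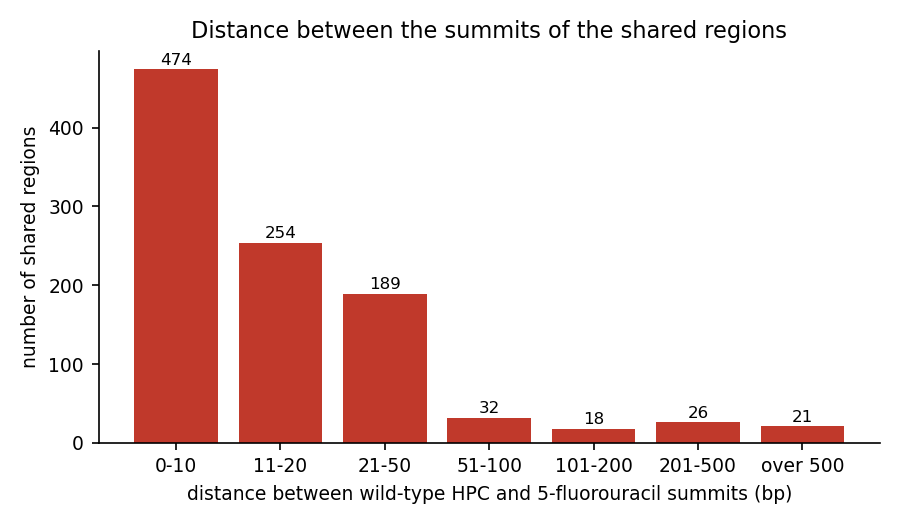
Bars count the 1014 5-fluorouracil-shared regions by the distance in bp between their wild-type HPC summit and their 5-fluorouracil summit, in classes of unequal width. The lowest class, up to 10 bp, holds 474 regions, and the 3 classes above 100 bp hold 18, 26 and 21.

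The knockout HPC list, which played no part in the choice, asks whether these progenitor regions were found again in a second set of progenitor samples, there without Kmt2c. Of the 1014 regions 521 were in knockout HPC, 51.4% (48.3 to 54.4), whereas 74.1% of all wild-type HPC regions were. The difference from the other 64818 regions was -23.1 percentage points (95% Newcombe interval -26.2 to -20). Most of that difference went with strength. In the weakest class of the HPC list 119 of 506, or 23.5% (20 to 27.4), were in knockout HPC, and in the second 235 of 330, or 71.2% (66.1 to 75.8). In the third it was 126 of 137, or 92.0% (86.2 to 95.5), and in the strongest 41 of 41, with a lower bound of 91.4%. Over all HPC regions the same classes gave 29.1%, 71.5%, 96.1% and 99.9%. Within these classes the differences from the other regions were -5.79 points (-9.35 to -1.85), -0.313 (-5.47 to 4.36), -4.21 (-10 to -0.712) and 0.0609. The knockout HPC list pools 2 samples and the wild-type list 4, so genotype and list length cannot be told apart here. Which exons of Kmt2c the deletion removes is not stated in the labels, so the lists do not check the genotype.

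Set beside vehicle-shared regions, 5-fluorouracil-shared regions were more often in knockout HPC. The vehicle-shared share was 1233 of 2726, 45.2% (43.4 to 47.1), which is 6.15 points lower (2.55 to 9.74). By strength class the difference was 1.73 points (-2.37 to 6.11) in the weakest, 8.85 (2.77 to 14.6) in the second, -1.74 (-7.89 to 2.89) in the third and 0 (-8.57 to 4.28) in the strongest. Of these 4 intervals, only that of the second class left out 0. Regions in no HSC list were in knockout HPC in 45.2% (44.1 to 46.3) of cases, 6.19 points lower (2.93 to 9.43). Against the regions in both 16-week lists, at 50.4%, the difference was 0.933 points (-2.31 to 4.17), an interval that includes 0. After removal of the weakest 25% from every list, the difference from vehicle-shared regions was 17.1 points (11.6 to 22.3), and at equal list length 16.4 (8.12 to 25.1). With the removal limited to the lists that must hold a region it was 12.2 (-1.91 to 22.5), which includes 0. Of the 359 5-fluorouracil-shared regions under the first of these settings 49 overlapped one of the 1014, of the 356 at equal length 7, and of the 49 under the last all 49, so the first 2 values describe mostly other regions.

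The folds in the 2 progenitor lists followed each other. Over the 521 regions in both, the median fold was 12 in knockout HPC, from 3.38 to 33.7, and the Spearman correlation with the wild-type HPC fold was 0.84. The fold in 5-fluorouracil HSC had a median of 4.86 in the 521 and also 4.86 in the 493 that knockout HPC lacked, whereas the median percentile in wild-type HPC was 39.8 and 13.3. The median fold in wild-type HPC was 12.8 and 8.72. Presence in knockout HPC thus went with strength in progenitors, while the median fold in treated stem cells was the same with and without it. Percentiles in the 5-fluorouracil list were not compared between the 521 and the 493.

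**Figure D3:**
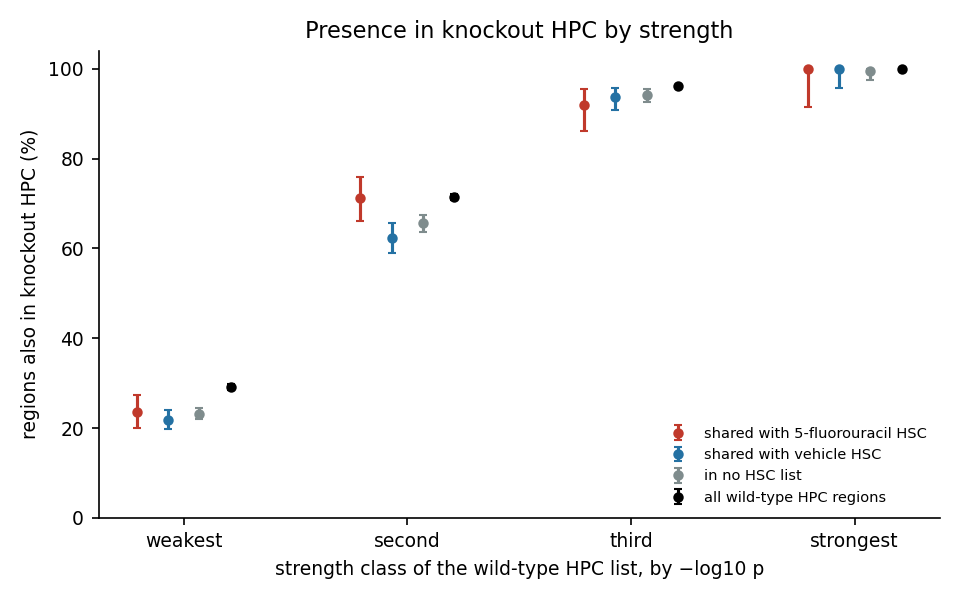
Points give the share of regions also found in knockout HPC, in %, by strength class of the wild-type HPC list, 4 classes of equal size ordered by −log10 p, with 95% Wilson intervals over regions, for 4 sets of wild-type HPC regions. All sets rise from under 30% in the weakest class to over 99% in the strongest, and the 5-fluorouracil-shared regions lie above the vehicle-shared ones in the second class, at 71.2% against 62.4%.

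Seen from the stem cell side, 3682 regions of the 5-fluorouracil list overlapped none of the other HSC lists, and 987 of them, 26.8% (25.4 to 28.3), were in wild-type HPC. Of 11192 such vehicle regions 2668 were, 23.8% (23.1 to 24.6). The rule for the 5-fluorouracil-shared regions used these same lists, so the difference of 2.97 points is a description and no test. In knockout HPC, 608 of the 3682 regions were found, 16.5% (15.3 to 17.7), and 1495 of the 11192 vehicle ones, 13.4% (12.7 to 14.0), a difference of 3.16 points (1.83 to 4.54). Both shares are far below those of all 5-fluorouracil regions and all vehicle regions in knockout HPC, 61.1% and 56.1%. In the weakest strength class of its own list, the 5-fluorouracil class was at 26.5% in wild-type HPC and the vehicle class at 22.3%. In the second class the order turned, with 32.9% (26.9 to 39.5) and 35.6% (33.0 to 38.2), though these intervals overlap. In knockout HPC the 5-fluorouracil class was at 15.9% (14.7 to 17.1) in the weakest and 26.2% (20.7 to 32.5) in the second. The vehicle class was at 12.6% and 19.2%.

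The 1014 regions lay mostly away from gene starts. Inside a protein-coding gene were 549, or 54.1% (51.1 to 57.2), against 61.7% of all wild-type HPC regions. Within 1 kb of either end of a gene were 63, or 6.21% (4.89 to 7.87), against 21.7% of all, and 21, or 2.07% (1.36 to 3.15), overlapped a RefSeq promoter window, against 15.7%. Another 381, or 37.6%, lay outside genes with one within 100 kb, and 84, or 8.28%, had none within 100 kb. Vehicle-shared regions were placed alike, with 54.8% inside a gene, 7.08% at a gene end and 2.93% at a promoter window, and regions in no HSC list gave 50.8%, 5.60% and 1.60%. Regions in both 16-week lists were at a gene end in 15.2% of cases.

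**Figure D4:**
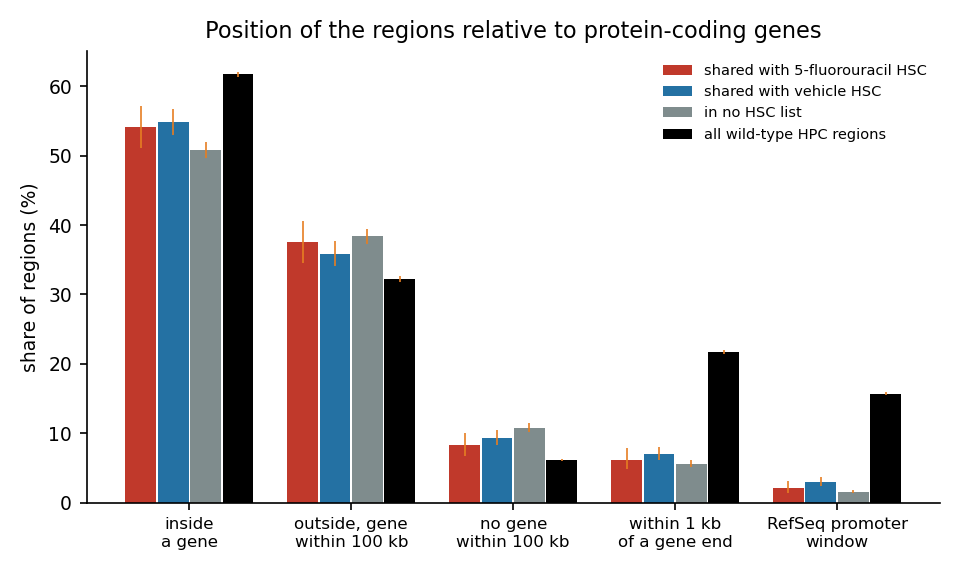
Bars give the share of regions, in %, in each position relative to protein-coding genes, with 95% Wilson intervals as thin lines, for 4 classes of wild-type HPC regions. The last 2 positions overlap with the others, and in both the 5-fluorouracil-shared regions, at 6.21% and 2.07%, lie far below all wild-type HPC regions, at 21.7% and 15.7%.

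By nearest gene, the highest fold of the 1014 in wild-type HPC lay 35.3 kb from Ptgs2, which encodes cyclooxygenase-2, the inducible enzyme of prostaglandin synthesis. Its interval was 150143559 to 150143991 of chromosome 1. The fold was 36.3 in wild-type HPC, rank 311 of 65832 by fold and percentile 90.3 by −log10 p, 33.6 in knockout HPC and 6.79 in 5-fluorouracil HSC. The nearest vehicle region was 20.6 kb away. The next, at 87625272 to 87625696 on chromosome 16, lay 29.9 kb from Map3k7cl, with folds of 34.9, 32.4 and 9.51 in the same order of lists.

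Trat1, an adaptor of the T cell receptor complex, had a pair of regions of high fold. The region inside the gene, at 48800831 to 48801273 on chromosome 16, had 34.9 in wild-type HPC, 33.7 in knockout HPC and 8.58 in 5-fluorouracil HSC. The one 13.9 kb outside, at 48716336 to 48716878, had 28.3, 27.1 and 12.2 and no vehicle region within 19.2 kb. It was the tenth highest of the 1014 in the 5-fluorouracil list.

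Further regions of high HPC fold lay inside Srgap3, with 32.6 in wild-type HPC, 28.1 in knockout HPC and 4.65 in 5-fluorouracil HSC, and inside AU040320, with 32.1, 28.8 and 4.29. Inside Ninj2, a cell adhesion gene with 3 of the 1014 regions, the highest had 31.7, 31.1 and 5.36. The region inside Cd5l, a protein secreted by macrophages, had 31.4, 22.4 and 4.86. Rnd3 had 31.3, 25.2 and 8.65 at 21.4 kb from the gene. Alk, a receptor tyrosine kinase, had 30.4, 30.2 and 6.36 inside the gene, and Ndufa10, a subunit of respiratory complex I, 30.0, 27.3 and 4.50 at 54.1 kb. All 10 were in knockout HPC, and each had its HPC and 5-fluorouracil summits within 100 bp. All but Cd5l, in the third, lay in the strongest class of the HPC list. Of all wild-type HPC regions in the third and strongest classes, 96.1% and 99.9% were in knockout HPC. Of all those in the 5-fluorouracil list, 90.4% had summits within 100 bp.

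Among the 10 highest folds in the 5-fluorouracil list, the HPC and 5-fluorouracil summits often lay apart. In 7 of the 10 the summits were over 100 bp apart, and in the same number the 5-fluorouracil region overlapped a vehicle region. The highest lay 15.6 kb from Slc41a2, a magnesium transporter, at 83215022 to 83215231 on chromosome 10. It had 24.4 in 5-fluorouracil HSC, 3.70 in wild-type HPC and 22.6 in knockout HPC, with a vehicle region 184 bp away. The HPC and 5-fluorouracil summits were 576 bp apart. The knockout fold is the highest of the overlapping knockout region, whose summit was not compared with the wild-type one. The 22.6 and the 3.70 therefore need not describe the same site. Sik3, a salt-inducible kinase, had 21.8 in 5-fluorouracil HSC and 5.24 in wild-type HPC, and Siglecg, a sialic acid-binding inhibitor of B cell receptor signalling, 21.4 and 6.95, both absent from knockout HPC. Snx13, a sorting nexin, had 18.5 and 2.47, Nrbp2 18.1 and 7.06, Stk10, a kinase of lymphocytes, 16.6 and 2.95, and Dlgap4 14.5 and 6.66.

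The other 3 had summits close together. Near Smad3, a transducer of TGF-beta signals, a region at 63793729 to 63794011 on chromosome 9 had 15.3 in 5-fluorouracil HSC, 17.3 in wild-type HPC and 19.9 in knockout HPC, with summits 6 bp apart. Near Tnfsf18, the ligand of GITR, a costimulatory receptor of T cells, a region at 161482211 to 161482584 on chromosome 1 had 15.1, 28.5 and 30.9, with summits 1 bp apart. The third was the outer Trat1 region. The nearest vehicle region was 1.91 kb away near Smad3 and 1.86 kb away near Tnfsf18.

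**Figure D5:**
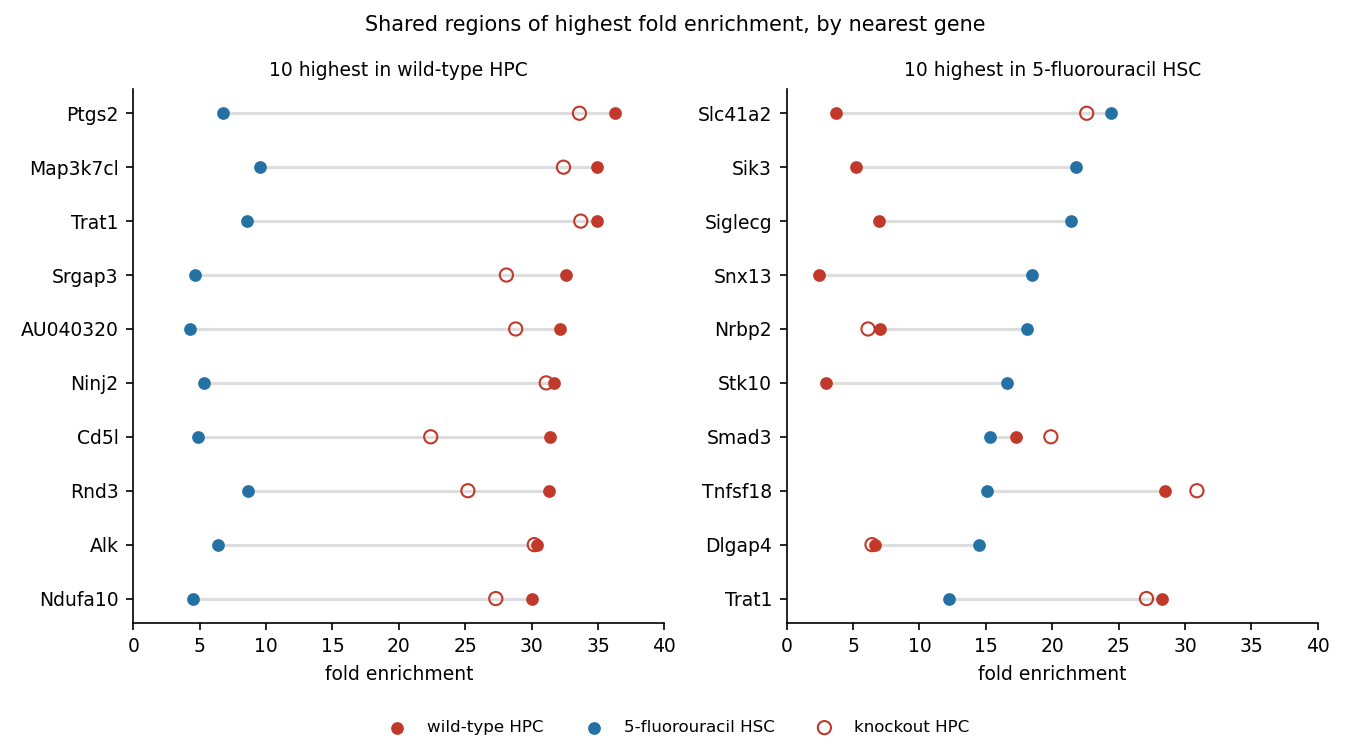
Dots give the fold enrichment in wild-type HPC (filled red), 5-fluorouracil HSC (blue) and knockout HPC (open red) for the 10 regions with the highest fold in wild-type HPC (left) and in 5-fluorouracil HSC (right), named by nearest gene, and a missing open dot marks a region absent from knockout HPC. On the left all 10 open dots lie right of the blue ones, from 22.4 to 33.7, and on the right 4 of the 10 regions have no open dot. An open dot is the highest fold of the overlapping knockout region, whose summit was not compared with the wild-type one.

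Of the 63 regions at a gene end, that of Arl2bp, which encodes a binding partner of the small GTPase ARL2, had the highest HPC fold, 25.4, with 17.9 in knockout HPC and 4.29 in 5-fluorouracil HSC. Next were 2810006K23Rik, with 21.4, 11.7 and 4.72, and Gbp4, an interferon-induced GTPase, with 18.5, 17.8 and 5.34. Neurog3, a transcription factor of the endocrine pancreas, had 18.3, 11.1 and 4.36, and its HPC and 5-fluorouracil summits coincided at 0 bp. The nonagouti gene a, a regulator of coat colour, had 17.4 in wild-type HPC and 6.22 in 5-fluorouracil HSC and was absent from knockout HPC. Btnl1, a butyrophilin-like gene, had 17.2, 13.6 and 7.94. The promoter region of P2ry14, whose sequence is shown above, had 14.8, 17.0 and 7.29, that of Nlrc4 12.5, 12.4 and 4.50, and that of Ankrd22 6.31, 6.05 and 3.97. The region at Sphk1 had 4.73 in wild-type HPC and 2.98 in 5-fluorouracil HSC and was absent from knockout HPC.

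The 1014 regions were spread thinly over genes. There were 852 genes with at least 1, of which 782 had 1, 62 had 2 and 8 had 3. The 8 were Fam107b, Fndc3a, Maml3, Nedd4l, Ninj2, Pced1b, Tle4 and Zfhx3. In the same order, these genes had 16, 10, 38, 21, 17, 11, 19 and 37 wild-type HPC regions in all. Maml3 is a coactivator of Notch, Nedd4l a ubiquitin ligase, Tle4 a transcriptional corepressor and Zfhx3 a homeobox factor. Abhd2, a lipid hydrolase, and Ahr, the aryl hydrocarbon receptor, had 2 each of the 1014, beside 13 and 5 of all wild-type HPC regions. They were taken by symbol from the 62 genes with 2, to complete the 10 genes with most regions. Both Ahr regions, with folds of 14.1 and 10.1 in wild-type HPC and 18.2 and 10.7 in knockout HPC, were in all 3 lists, with 4.36 and 2.99 in 5-fluorouracil HSC. Among the Fndc3a regions, 1 had 9.43 in wild-type HPC, 10 in knockout HPC and 9.94 in 5-fluorouracil HSC. Among those of Pced1b the highest had 23.2, 19.8 and 6.29. The median gene length was 144 kb for the 10 genes with most regions, 48.3 kb for genes with at least 1 and 17.2 kb for all protein-coding genes. Whether gene length bears on the counts was not tested. These 10 genes had 28 of the regions as deposited, 3 after removal of the weakest 25% from every list and 1 at equal list length.

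The 18 gene lists held 391 symbols and took 38 of the 1014 regions, 3.75%, beside 3.28% of all wild-type HPC regions. Stem cell identity genes had 7 regions at 5 genes, 0.690% beside 0.565%. Foxo3, a factor of stem cell quiescence, and Msi2, an RNA-binding protein of stem cells, had 2 each, and Meis1, Zfp36l2 and Etv6 1 each. The Meis1 region, 61.6 kb from the gene, had 19.6 in wild-type HPC, 14.1 in knockout HPC and 6.08 in 5-fluorouracil HSC. Both Foxo3 regions, with HPC folds of 8.05 and 9.42, were in knockout HPC, and neither Msi2 region, with 6.86 and 8.38, was. Chromatin regulators had 4 regions, 0.394% beside 0.302%, at Tet2, a DNA demethylase, Suz12, a subunit of Polycomb complex PRC2, Dnmt1, the maintenance DNA methyltransferase, and Arid1b, a remodelling subunit. Of these the Tet2 region had 14.6, 12 and 5.51, and the other 3 were absent from knockout HPC. The Suz12, Dnmt1 and both Msi2 regions lay in the weakest strength class of the HPC list, where 29.1% of all regions were in knockout HPC. The Arid1b region lay in the second, where 71.5% were.

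Erythroid and megakaryocyte genes had 4 regions, 0.394% beside 0.185% of all wild-type HPC regions, at Mef2c, Vwf, Sphk1 and Nfe2. Of the 4, only that at Mef2c was in knockout HPC, with 14.4 in wild-type HPC and 15.0 in knockout HPC, and the 5-fluorouracil region at Vwf, von Willebrand factor, overlapped a vehicle region. Lymphoid progenitor genes had 3, at Foxo1, Lef1 and Bcl11a, 0.296% beside 0.249%, and none of the 3 was in knockout HPC. The regions at Vwf, Sphk1, Nfe2, Lef1 and Bcl11a lay in the weakest strength class of the HPC list, and those at Mef2c and Foxo1 in the second. Of all wild-type HPC regions in these classes, 29.1% and 71.5% were in knockout HPC. Cell cycle genes had 3, 0.296% beside 0.240%, with 2 at E2f8, a repressive E2F factor, and 1 at Mki67, the proliferation marker. The Mki67 region had 13.2, 9.11 and 6.08 and the higher E2f8 region 13.1, 9.15 and 4.29.

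Cytokine and growth factor receptors had 3 regions, at Tgfbr2, Igf1r and Il10rb, 0.296% beside 0.307%. AP-1, CREB and immediate early genes had 2, 0.197% beside 0.226%. Of these the region 90.8 kb from Dusp6, a phosphatase that switches off ERK, had 25.1 in wild-type HPC, 23.3 in knockout HPC and 8.01 in 5-fluorouracil HSC, with no vehicle region within 21.8 kb, and the region near Mafk had 4.15 and 2.66. The interleukin-1 and TNF list had 2, at Tlr2 and Tnfrsf1b, 0.197% beside 0.222%. Myeloid progenitor genes had 1, at Fcgr3, interferon and antigen presentation genes 1, at Irf2, and p53 and apoptosis genes 1, at Bcl2. Each was 0.0986%, beside 0.220%, 0.166% and 0.199% of all wild-type HPC regions. Counts this small have wide intervals, for example 0.335 to 1.42% for stem cell identity, and all these intervals hold the share of all HPC regions.

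Markers of other cell types also had few regions. Mature B cell genes had 2 regions, at Cr2 and Fcer2a, 0.197% (0.0541 to 0.716) beside 0.0410%, and neutrophil genes 2, at Mmp8 and S100a9, 0.197% (0.0541 to 0.716) beside 0.0304%. Both intervals leave out the share of all wild-type HPC regions, and they rest on 2 regions each. The vehicle-shared and no-HSC shares were 0.0734% and 0.0596% for mature B cell genes, inside that interval. For neutrophil genes they were 0 and 0.0358%, below it. The Mmp8 region had 13.0 in wild-type HPC, 14.0 in knockout HPC and 4.58 in 5-fluorouracil HSC, and the other 3 were absent from knockout HPC. The Fcer2a region lay in the weakest strength class of the HPC list and those at Cr2 and S100a9 in the second. Of all wild-type HPC regions in these classes, 29.1% and 71.5% were in knockout HPC. Macrophage genes had 1, at Mrc1, stroma and endothelium genes 1, at Pdgfra, and housekeeping genes 1, at Ywhaz, each 0.0986% beside 0.0714%, 0.0942% and 0.0820% of all HPC regions. T and NK cell markers and markers of mast cells, basophils and eosinophils had 0, beside 0.0471% and 0.0273% of all HPC regions. The part of other cell types in these regions was not tested.

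The label of the cells was checked at the ends of marker genes, where an accessible region shows an open site and not expression. All 3 general blood genes had one in every list. Of 5 stem cell genes 5 had one in wild-type HPC and in both 16-week HSC lists, and of 5 progenitor genes 4 in wild-type HPC and in 5-fluorouracil HSC and 5 in vehicle HSC. Mpo, the myeloperoxidase gene of granulocyte and monocyte progenitors, had one in vehicle HSC and not in wild-type HPC. Of 9 genes of other lineages 7 had one in wild-type HPC and 5 in each 16-week list. In the 8-week HSC lists, which are the shortest, 4 of the 5 stem cell genes in each, 3 of the 5 progenitor genes in each, and 2 and 3 genes of other lineages had one. Cd48, a surface protein of progenitors that stem cells lack, had one in both HPC lists and in neither 8-week HSC list, but also in both 16-week HSC lists. Between wild-type HPC and the 16-week HSC lists these stem cell and progenitor genes differed at Mpo, in vehicle HSC, and Gata2, a factor of both cell types, had one in both 16-week lists and not in wild-type HPC. The names HSC and HPC rest on the labels.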

How the data were processed

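ATAC-seq peak lists of mouse HSC and HPC were analysed, 1 per group, for 18 samples. Per the labels a list belongs to all samples of its group, so the lists were taken to be pooled. Bowtie2, MACS2 and the build mm10 (GRCm38) were used, per the submitters' processing notes. Nothing in the sources used here gives tool versions, filters, read depth or how samples were combined. The sample labels name total RNA as the molecule, at odds with a DNA assay. In the deposited lists the fold enrichment is the authors' ratio of summit signal to local background. The deposited −log10 p of each row was used for ranks within a list, and its smallest value was 2.00. The −log10 q and the deposited score were not used.

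Overlapping rows were merged into regions with Python 3.11.15, numpy 2.4.6 and pandas 2.3.3. A region took the highest fold and the highest −log10 p of its rows, and the summit of the row with the highest −log10 p. Presence means an overlap of at least 1 bp. A deeper or longer list reaches more weak regions, so presence, absence and the size of each class depend on the depth, the number of samples pooled and the threshold of 5 lists. The overlap steps were tested on simulated regions. Coordinates are 1-based on mm10. A RefSeq table of GRCm38.p6 without strand gave 21887 protein-coding genes. A region was given to the nearest gene body within 100 kb, and both ends of a gene stood for its start. The nearest gene need not be the one a region acts on. Promoter windows matched 17492 of these genes. Of 391 listed symbols 2 were not found.

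Named genes were the 10 with most regions, ties taken by symbol. Also named were those nearest to the 10 highest folds in wild-type HPC and in 5-fluorouracil HSC. Up to 4 of each gene list and the 6 of highest fold at a gene end were added. Etv6 and the promoters other than those were named after their values were seen. The regions and lists were chosen with earlier results of these data known. Alternatives covered weak regions, list length, overlap, summit windows, absence within 1 kb, merging, sex chromosomes, the lists required and gene ends. A search of motifs in the regions themselves was not run, because no genome sequence was used here.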

Additional observations from a re-analysis of the deposited data

How the results depend on the processing

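As deposited there were 1014 5-fluorouracil-shared and 2726 vehicle-shared regions. After removal of the weakest 25% from every list there were 359 and 1679, with the weakest 25% removed only from the lists that must hold a region 49 and 249, and at equal list length 356 and 156. Without the demand for absence from vehicle HSC there were 9944 5-fluorouracil-shared regions. Under the same 3 settings for weak regions the share in knockout HPC went from 51.4% to 67.7%, 81.6% and 81.2%. The difference from vehicle-shared regions went from 6.15 points to 17.1, 12.2 (-1.91 to 22.5) and 16.4, so that its direction held and 1 interval includes 0. Of the 359 and 356 regions 49 and 7 overlapped one of the 1014, and all 49 of the other setting did. The cause of these shifts was not tested. The share at a gene end, 6.21%, was 8.16% with weak regions removed only from the lists that must hold a region, 8.43% at equal list length, 12.3% with 200 bp windows around summits, 4.10% with absence required within 1 kb and 10.7% with ends of 2 kb. The share of summits within 100 bp, 93.6%, was 90% and 89.8% with weak regions removed from each list or only from the holding lists, 97.0% with summit windows, 96.3% with absence within 1 kb, and 95.9% among the 983 whose 5-fluorouracil region overlaps no other HSC list, a setting added after the data were seen. The 10 genes with most regions held 28, and 3 and 1 with weak regions removed from each list or at equal length. The excess of vehicle-shared over 5-fluorouracil-shared regions turned at equal list length. The difference in knockout HPC kept its sign in every setting run. The AP-1 share of promoter windows, 39.1%, recomputed under the same settings after the data were seen, ran from 5.56% without the demand for absence from vehicle HSC to 50%, of 2 windows. The strength classes, the stem cell side and the gene lists were not recomputed. No replicate could be left out, since each group had 1 pooled list. No paired analysis was possible because the pooled lists carry no replicate numbers. Read depth is unknown, so weak regions absent from a list may lie under its threshold.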
